A study of Sus scrofa with 18 samples.

Results

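Vesicle release at the synapses of the piglet retina was followed through 7 genes, SNAP25, VAMP2, NSF, SYT1, CTBP2, SYN1 and SYN2. Every probe set (a group of short probes against 1 transcript) that the platform annotation gives to exactly 1 of these symbols was taken, which gave 12 of the 24123 probe sets on the array. NSF had 4 probe sets, SYT1 and CTBP2 had 2 each, and the other genes had 1 each. The study asked, by its title, how sialyllactose bears on the development of the retina and on vision. Sialyllactose is a milk sugar in which a sialic acid is bound to lactose. The tested piglets drank milk replacer supplemented with sialyllactose, and the control piglets drank the same kind of milk replacer at its basal level. There were 9 piglets per diet, all male and all from a Landrace x Large White cross, enrolled at 3 days of age, placed in the groups at random and sampled at postnatal day 38. Total RNA of each retina went onto its own Affymetrix pig array, so each of the 18 arrays stands for 1 piglet.

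Neurotransmitter release depends on proteins of the vesicle and of the cell membrane, the SNAREs, which zip together and pull the membranes into one. Synaptotagmin triggers this step when calcium enters, and the ATPase NSF pulls the used SNARE bundle apart so that its parts can serve again. Photoreceptors and bipolar cells of the retina release transmitter at ribbon synapses, where a plate built from RIBEYE, a product of the CTBP2 gene, holds vesicles next to the release site, while synapsins tether vesicles at the conventional synapses of other retinal neurons.

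Values are robust multi-array averages (RMA) on the log2 scale, on which a step of 1 is a doubling. Of the 12 probe sets, 11 passed a brightness filter and were tested with limma among 16799 probe sets, with p-values adjusted by Benjamini-Hochberg over all of them. How bright a probe set is depends on its probes as well as on its transcript, so levels are not ranked between genes. In whole retina, fewer cells of a type and less RNA per cell cannot be told apart. The tissue label was checked against defining markers: the photoreceptor genes SAG and ARR3 averaged 10.6 and 9.63, the Mueller glia gene GLUL 10.5, the ganglion cell gene NEFL 9.76 and the amacrine cell gene GAD1 7.34 (log2, 18 retinas). The rod channel gene CNGA1 and PRKCA, a marker of rod bipolar cells, had dim probe sets, at 3.33 and 2.35 (log2). TTR, a marker of the pigment epithelium behind the retina, ranged from 4.54 to 8.32 between retinas, the red cell gene HBB from 5.57 to 6.06 and the myelin gene MBP from 4.24 to 4.61. The array of control replicate 2 stood apart: its mean correlation with the other arrays was 0.983, against 0.988 to 0.990 for the rest. Values without it are given beside the results that moved most when it was left out.

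SNAP25, the SNARE on the inner face of the nerve terminal membrane, had a probe set brighter than 99.8% of those tested. It lay between 9.88 and 10.03 with a median of 9.96 in sialyllactose retinas, and between 9.57 and 10.11 with a median of 9.93 in control retinas (log2). The sialyllactose retinas formed a narrow band inside the control range. Control replicates 3, 8 and 6 lay below that band at 9.57, 9.65 and 9.70, and control replicate 5 lay above it. The means were 9.96 ± 0.05 in sialyllactose and 9.86 ± 0.18 in control retinas (SD, n = 9 each), a log2 difference of 0.10 with a 95% interval of -0.04 to 0.23 (limma adjusted p = 0.844). In fold terms this was 1.07, with an interval of 0.976 to 1.17. The medians differed less than the means, and 7 of the 9 sialyllactose retinas lay above the control median.

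VAMP2, or synaptobrevin, is the SNARE carried by the vesicle itself. Its values ran from 5.72 through a median of 5.82 to 5.98 in sialyllactose retinas and from 5.61 through 5.78 to 5.95 in control retinas (log2). The diets overlapped over most of this span, and the lowest values belonged to control replicates 3 and 8, which were also the lowest for SNAP25. The log2 difference was 0.05, with a 95% interval of -0.06 to 0.16 (limma adjusted p = 0.915).

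NSF, the ATPase that recycles SNAREs, was read by 4 probe sets that did not give 1 picture. The brightest, Ssc.22051.2.S1_at, ran from 7.23 through a median of 7.30 to 7.38 in sialyllactose and from 7.10 through 7.31 to 7.37 in control retinas (log2). Control replicates 7, 6 and 5 were the 3 lowest retinas, and the diets otherwise overlapped. The log2 difference was 0.04 (95% interval -0.06 to 0.14, limma adjusted p = 0.917).

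The probe set Ssc.22051.1.A1_at of NSF went the other way. It ran from 3.79 through 4.04 to 4.31 in sialyllactose retinas and from 3.95 through 4.34 to 4.52 in control retinas (log2). All 9 sialyllactose retinas lay below the control median, although control replicates 9 and 4 were lower than most of them. Its means were 4.07 ± 0.17 in sialyllactose and 4.26 ± 0.19 in control retinas (SD, n = 9 each), a log2 difference of -0.20 (95% interval -0.37 to -0.03) or a fold of 0.872. The unadjusted limma p was 0.0261 and the exact permutation p 0.0379, and the difference did not pass over all probe sets (limma adjusted p = 0.753). The call before adjustment was lost without control replicate 7 (limma unadjusted p, moderated over 16799 probe sets, of 0.057), sialyllactose replicate 3 (0.0579) or sialyllactose replicate 9 (0.0529).

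The other pair of NSF probe sets was near the lower end of the scale. Ssc.16205.1.A1_at had a mean of 1.50, just inside the filter, whose limit was a mean of 1.48. It ran from 1.43 through 1.56 to 1.70 in sialyllactose retinas and from 1.003 through 1.50 to 1.73 in control retinas (log2), with a difference of 0.16 (95% interval -0.01 to 0.32, limma adjusted p = 0.783). The lowest retinas were control replicates 2 and 4, and without control replicate 2 the difference was 0.11. Ssc.16205.1.S1_at, built on the same source sequence, averaged 0.55 and fell outside the filter. It spanned 0.38 to 0.69 in sialyllactose and 0.38 to 1.21 in control retinas (log2), where the top value was that of control replicate 2 and the next highest control was at 0.59.

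SYT1, the calcium sensor of fast release, was bright in Ssc.8367.1.A1_at and varied little. Values ran from 8.85 through 8.95 to 9.05 in sialyllactose and from 8.74 through 8.93 to 9.02 in control retinas (log2), a difference of 0.04 (95% interval -0.06 to 0.13, limma adjusted p = 0.926). Control replicates 2 and 3 were the lowest retinas and sialyllactose replicates 1 and 2 the highest, with all others between. Without control replicate 2 this difference was 0.01.

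The second SYT1 probe set, Ssc.14349.1.A1_at, was dimmer and spread widely, with a 2.05-fold range over the 18 retinas. It ran from 5.19 through 5.35 to 5.80 in sialyllactose and from 5.02 through 5.59 to 6.06 in control retinas (log2). Both ends of the range were control retinas, replicate 2 at the bottom and replicate 4 at the top, and 8 of 9 sialyllactose retinas lay below the control median. The log2 difference was -0.10 (95% interval -0.34 to 0.15, limma adjusted p = 0.923), opposite in sign to that of the brighter SYT1 probe set. It was -0.15 without control replicate 2 and -0.02 without control replicate 4.

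CTBP2 encodes a transcriptional corepressor and, from another start, the ribbon protein RIBEYE, and the annotation does not say which of these transcripts its probe sets read. Ssc.27641.1.A1_at ran from 8.18 through 8.25 to 8.39 in sialyllactose and from 7.84 through 8.25 to 8.42 in control retinas (log2). Control replicate 2 lay alone at the bottom, with the next retina at 8.13, and the medians of the diets were almost equal. The log2 difference of 0.05 (95% interval -0.09 to 0.18, limma adjusted p = 0.936) was -0.005 without control replicate 2. Ssc.20400.1.S1_at ran from 7.36 through 7.54 to 7.67 in sialyllactose and from 7.31 through 7.58 to 7.70 in control retinas (log2), with a difference of -0.004 (95% interval -0.12 to 0.11, limma adjusted p = 0.997). The diets overlapped throughout, and control replicate 6, which was highest in the first CTBP2 probe set, was lowest in this one.

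The synapsins SYN1 and SYN2, which hold the reserve pool of vesicles, had dim probe sets, brighter on average than 24.7% and 18.2% of those tested. SYN1 ran from 2.38 through 2.45 to 2.63 in sialyllactose and from 2.29 through 2.46 to 2.65 in control retinas (log2), with a difference of 0.02 (95% interval -0.09 to 0.13, limma adjusted p = 0.973). SYN2 ran from 1.87 through 2.15 to 2.32 in sialyllactose and from 1.83 through 2.23 to 2.39 in control retinas (log2), with a difference of -0.02 (95% interval -0.19 to 0.15, limma adjusted p = 0.986). Without control replicate 2 the differences were 0.04 for SYN1 and -0.00033 for SYN2. In both synapsins the lowest retina was control replicate 7 and the highest was control replicate 3, so the control range enclosed the sialyllactose range.

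**Figure D1:**
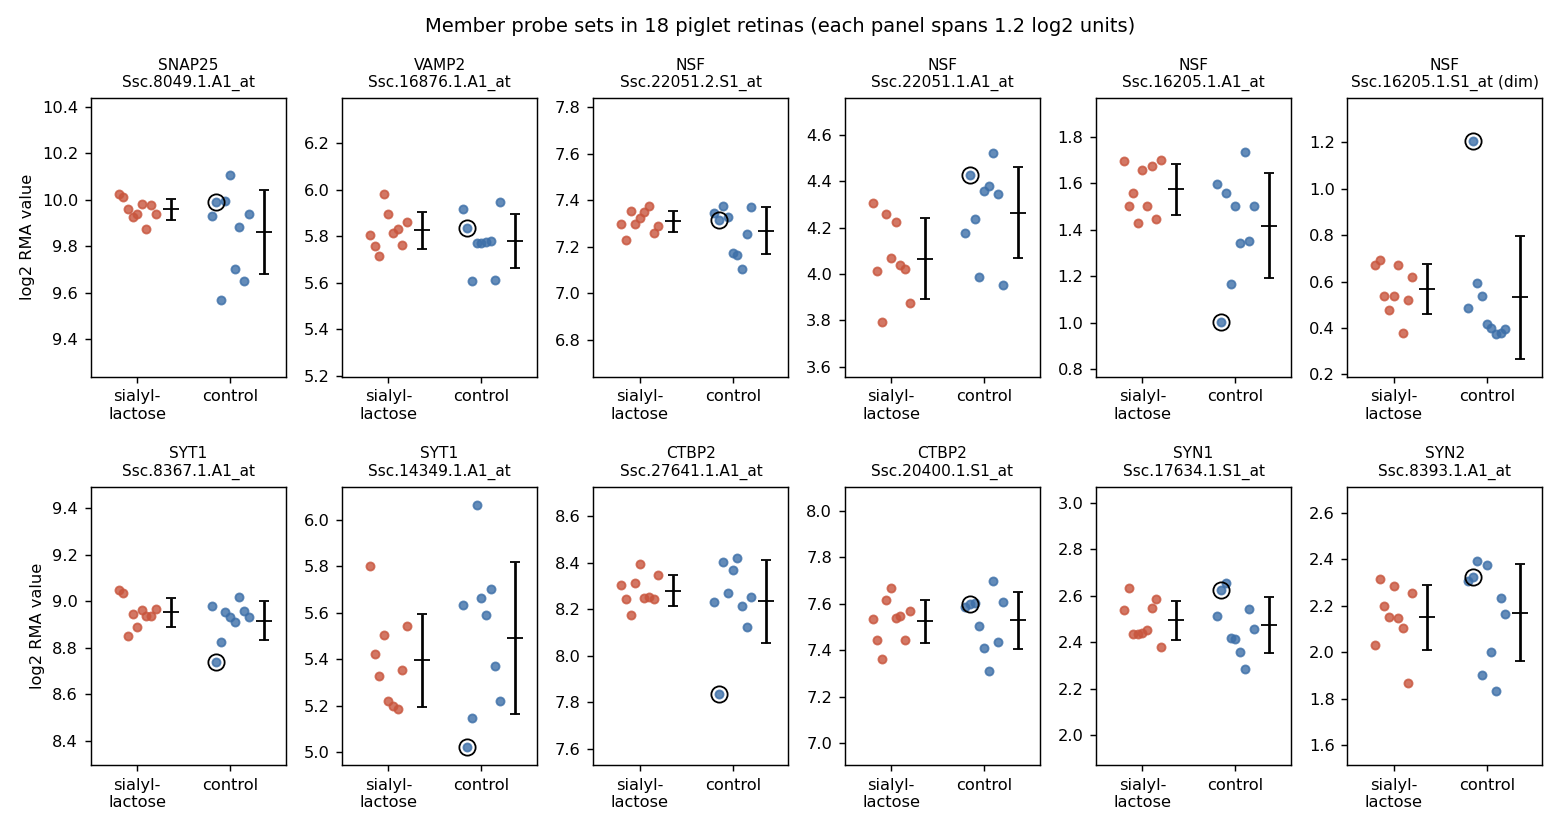
Log2 RMA value (vertical axis, each panel spanning 1.2 log2 units) of all 12 member probe sets in 9 sialyllactose and 9 control retinas. Points are retinas, crossbars are the mean with its SD, and the ringed point is control replicate 2. The sialyllactose points of SNAP25 lie between 9.88 and 10.03 while 3 control points lie below 9.8, and the ringed point lies alone in CTBP2 Ssc.27641.1.A1_at and NSF Ssc.16205.1.S1_at.

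Read as a group, 0 of the 11 tested member probe sets passed the limma test at an adjusted p under 0.05, where the background was 0 of 16799 (0.0%). At an unadjusted p under 0.05, 1 of the 11 was called, the lower NSF probe set, against 1059 of all tested probe sets (6.3%), of which 3.36% of the tested were lower and 2.94% higher. The exact permutation test called that same 1 probe set before adjustment. The limma count was 2 with the replicate number as a block and with arrays centred on their medians, where NSF Ssc.16205.1.A1_at was also called. It ran from 0 (without sialyllactose replicate 3 or 9) to 2 (without control replicate 1, 3 or 5 or sialyllactose replicate 4) with single arrays left out. The 95% intervals of the 11 differences all lay between folds of 0.774 and 1.25. In none of the 11 did the diets separate without overlap, and over all tested probe sets this share was 0.0%.

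With each gene at its brightest probe set, 6 of the 7 genes had a higher mean in sialyllactose retinas, where 43.3% of 5710 genes did so. That background was 50.1% when quantile normalized again and 53.4% with arrays centred on their medians. The 7 genes were also chosen with earlier results of these data known. The median of the 7 log2 differences was 0.04, against -0.01 over all genes, and the 95% interval of each of the 7 differences included 0. The 7 genes are not independent readings, and the count was 5 without control replicate 2 or 7 and 7 without control replicate 3 or 5 or sialyllactose replicate 8. Counted over probe sets, 7 of the 11 had a higher mean in sialyllactose retinas, against 46.6% of all tested probe sets.

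**Figure D2:**
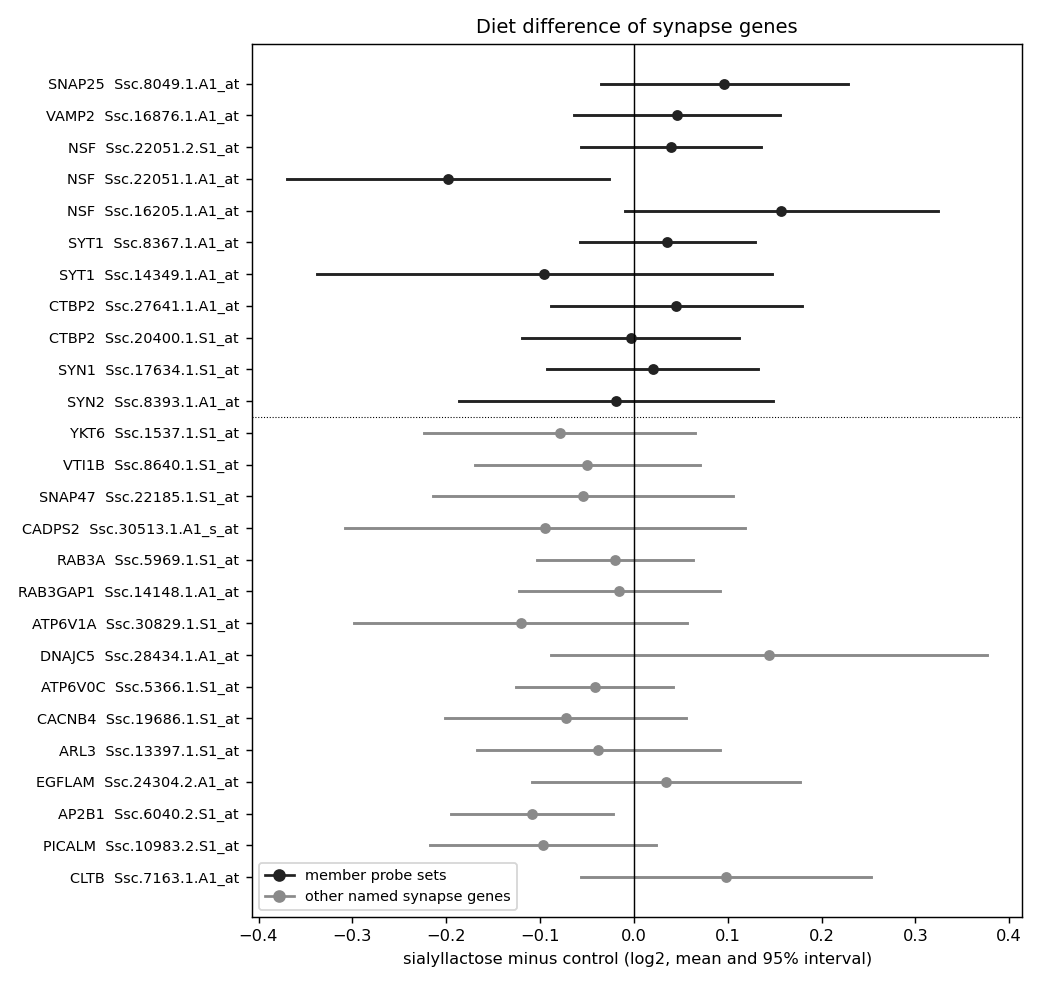
Sialyllactose minus control difference (horizontal axis, log2) with its 95% limma interval for the 11 tested member probe sets (black, above the dotted line) and for 15 other synapse genes (grey). Among the member probe sets, the interval of NSF Ssc.22051.1.A1_at, -0.37 to -0.03, is the one that does not cross 0.

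How far piglets on the same diet lay from each other was described next. The mean absolute deviation from the own diet's median was smaller in sialyllactose than in control retinas in 11 of the 11 tested member probe sets, while this was so for 62.1% of all tested probe sets. Without control replicate 2 it was 10 of 11, against 54.8% of all, and without control replicate 4 or 9 it was also 10. This measure was added after the data had been seen. For SNAP25 the deviation was smaller by 0.10 on the log2 scale in sialyllactose retinas (difference -0.10, exact permutation p = 0.0394, adjusted p = 0.9998). That unadjusted call was lost when the low control replicates 3 (exact permutation p = 0.0725), 6 or 8 were left out. Leaving out sialyllactose replicate 3, 4, 5, 6, 8 or 9 lost it too. So did centring the arrays (exact permutation p = 0.0518) and quantile normalizing them again (exact permutation p = 0.0701). Over all probe sets 2.84% differed in spread at an unadjusted p under 0.05, 2.19% being narrower with sialyllactose, and 0.0% at an adjusted one. In simulated data where few probe sets were changed, the adjusted spread test also called 0.0% of those given 0.1 of the SD in 1 group. The adjusted values therefore cannot show that the spreads were alike.

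At the brightest probe set of each gene, the lowest of the 18 retinas was a control in all 7 genes. It was replicate 7 for 3 genes, replicate 2 for 2 and replicate 3 for 2. The highest retina was a control for 4 genes and a sialyllactose retina for 3. How often the lowest retina was a control over all tested genes was not counted, so the count has no background. Deviations were smaller in sialyllactose retinas for 62.1% of all tested probe sets. No single array was low or high in all 7 genes.

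Probe sets of 1 gene were next compared across the 18 retinas. The 2 SYT1 probe sets went up and down together (Pearson r = 0.61, permutation p = 0.00657, adjusted p = 0.0329 over the 5 pairs of member probe sets; Spearman rho = 0.61, adjusted p = 0.0411). The relation was found in both diets, with r = 0.63 in sialyllactose and 0.73 in control retinas, and stood above 92.3% of the 2823 same-gene pairs on the array. Without control replicates 2 and 3, the retinas farthest from the median, r was 0.43. Its call was lost without control replicate 2 (adjusted p = 0.0852) or 7 (0.0695) or sialyllactose replicate 1 (0.0526) or 5 (0.0526).

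In NSF, Ssc.22051.2.S1_at and Ssc.22051.1.A1_at ran against each other (r = -0.56, permutation p = 0.0156, adjusted p = 0.0391; rho = -0.49, adjusted p = 0.0991). Only 0.779% of same-gene pairs on the array had a lower r, and their median was 0.155. Within diets r was -0.04 in sialyllactose and -0.74 in control retinas, a difference that was not tested. Without control replicates 6 and 7, which were low in the first probe set and high in the second, r was -0.31. The call was lost with diet means subtracted (adjusted p = 0.104) and without any 1 of control replicates 4 to 9 or sialyllactose replicates 1, 3, 5 and 7, with r from -0.62 to -0.42 over all arrays left out in turn.

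The remaining same-gene pairs showed little relation. NSF Ssc.16205.1.A1_at had r = -0.02 with the brightest NSF probe set and -0.20 with Ssc.22051.1.A1_at. The CTBP2 probe sets had r = -0.09 over all retinas. In CTBP2 the diets looked unlike, with r = 0.89 in sialyllactose and -0.37 in control retinas, and without control replicates 2 and 6 the pooled r was 0.38. The difference between these within-diet values was not tested. Over the array, 68.9% of same-gene pairs had an r above 0, whereas 1 of the 5 member pairs did. The 5 pairs are not independent, since the NSF pairs share probe sets, and Ssc.16205.1.A1_at was near the lower end of the scale. The rho of Ssc.16205.1.A1_at was 0.12 with the brightest NSF probe set and -0.18 with Ssc.22051.1.A1_at. Between the CTBP2 probe sets rho was 0.05.

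**Figure D3:**
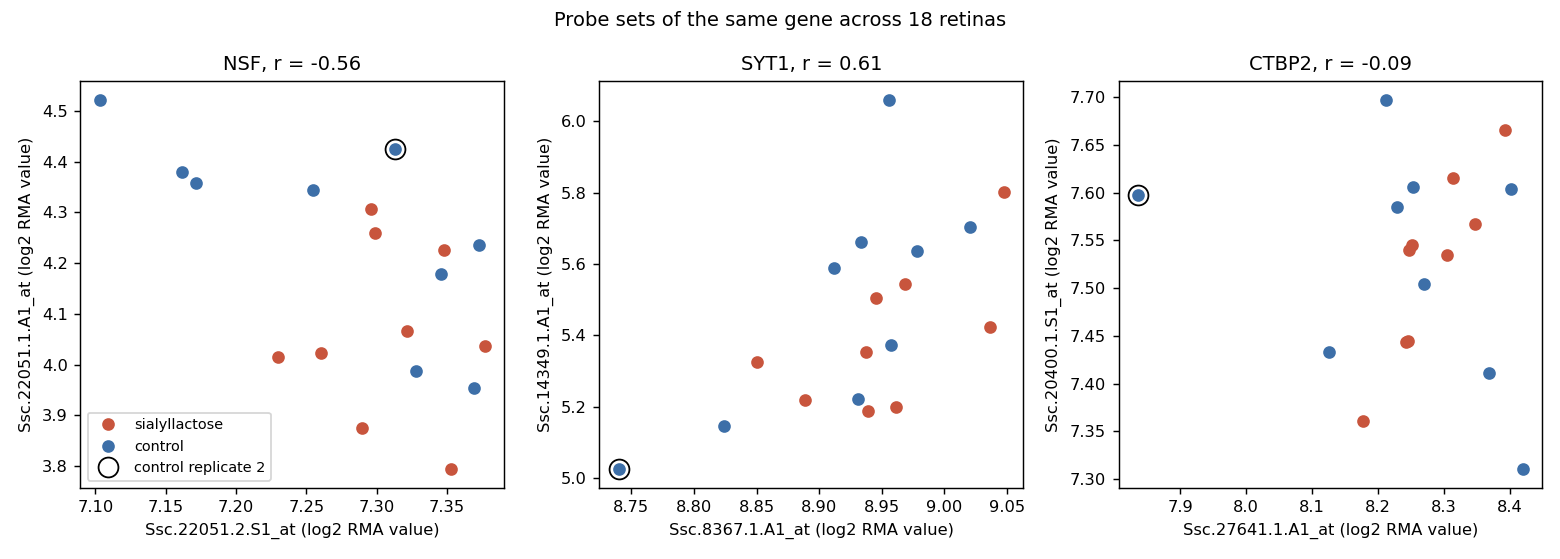
Values of 2 probe sets of NSF, SYT1 and CTBP2 plotted against each other (both axes log2 RMA value), 1 point per retina, with control replicate 2 ringed. NSF slopes downward (r = -0.56), SYT1 slopes upward (r = 0.61), and CTBP2 has no overall slope (r = -0.09) although its sialyllactose points line up (r = 0.89).

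**Figure D4:**
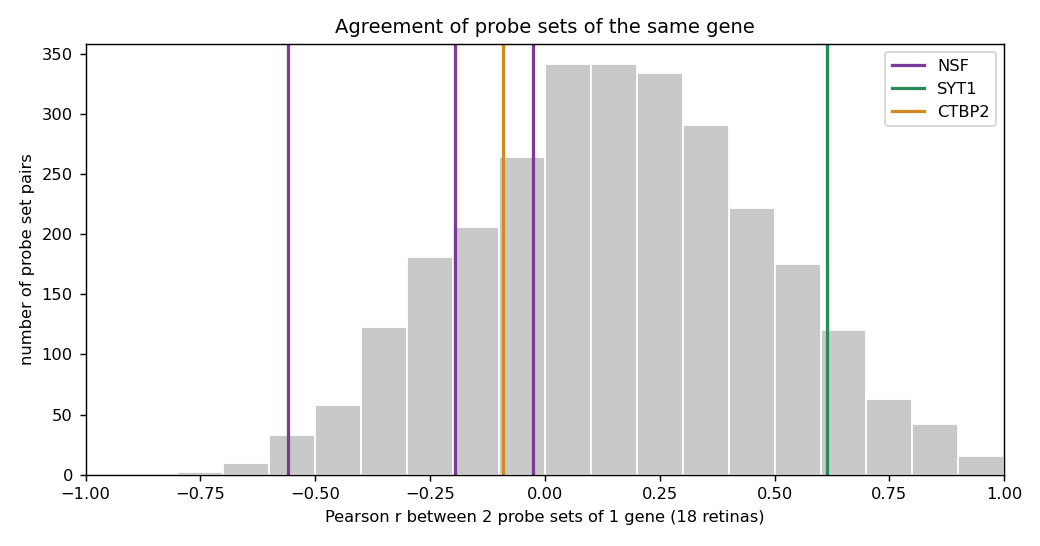
Number of same-gene probe set pairs on the array (vertical axis, 2823 pairs, grey bars) by Pearson r over 18 retinas (horizontal axis), with the 5 member pairs as coloured lines. The SYT1 pair stands toward the upper end at 0.61, and 1 NSF pair stands in the lower tail at -0.56.

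Because probe sets of NSF, SYT1 and CTBP2 differed in sign between the diets, the difference between probe sets was also compared within each array, a measure added after the data had been seen. Against Ssc.22051.1.A1_at, the brightest NSF probe set was higher by 0.24 in sialyllactose than in control retinas (exact permutation p = 0.0479, adjusted p = 0.787 over 2823 pairs). This unadjusted call was lost when any 1 of 11 arrays was left out, with exact permutation p-values of up to 0.0942 (without control replicate 7). The NSF probe set Ssc.16205.1.A1_at lay just inside the brightness filter, which limits what its pairs can show. Ssc.22051.1.A1_at minus this dim probe set differed by -0.36 between the diets (exact permutation p = 0.0074, adjusted p = 0.618). That unadjusted call held with each array left out in turn (exact permutation p from 0.0025 to 0.0158). For the brightest NSF probe set minus the dim one the value was -0.12 (exact permutation p = 0.249, adjusted p = 0.874). The corresponding differences were 0.13 in SYT1 (exact permutation p = 0.239) and 0.05 in CTBP2 (exact permutation p = 0.594). No pair of the array passed after adjustment (0.0%), and 6.2% had an unadjusted p under 0.05. Probe sets with diet differences of opposite sign were common, at 42.9% of same-gene pairs.

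No shared variation of the 7 genes between retinas was detected. Among the 21 pairs of genes, each at its brightest probe set, 0 had an adjusted permutation p under 0.05 and the lowest was 0.502. The median r was -0.03 over the 21 pairs and 0.009 over all pairs of tested genes. An absolute r above 0.468 was found in 1 of the 21 pairs (4.76%), against 7.83% of all gene pairs. Without control replicate 3 the median r of the 21 pairs was 0.16. Even probe sets of 1 gene had a median r of only 0.155 over the array, and SYN1 and SYN2 were dim. Low r between the 7 genes therefore does not show that they varied apart.

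The strongest pair was SNAP25 with VAMP2, the partners of the SNARE bundle (r = 0.50, permutation p = 0.0336, adjusted p = 0.502). Its rho was -0.001, and without control replicates 3 and 8, which were low in both genes, r was -0.14. Within diets r was -0.49 in sialyllactose and 0.67 in control retinas.

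NSF and SYN1 had r = 0.45 and SYN1 and SYN2 had r = 0.41, and the sign of each was not the same in both diets. NSF with SYN1 gave r = -0.45 in sialyllactose and 0.74 in control retinas, and the synapsin pair gave -0.35 in sialyllactose and 0.78 in control retinas. SYT1 with CTBP2 gave r = 0.37, and -0.32 without control replicate 2, which was low in both. VAMP2 with CTBP2 gave 0.74 in sialyllactose and -0.19 in control retinas. Differences between the diets in r were not tested.

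**Figure D5:**
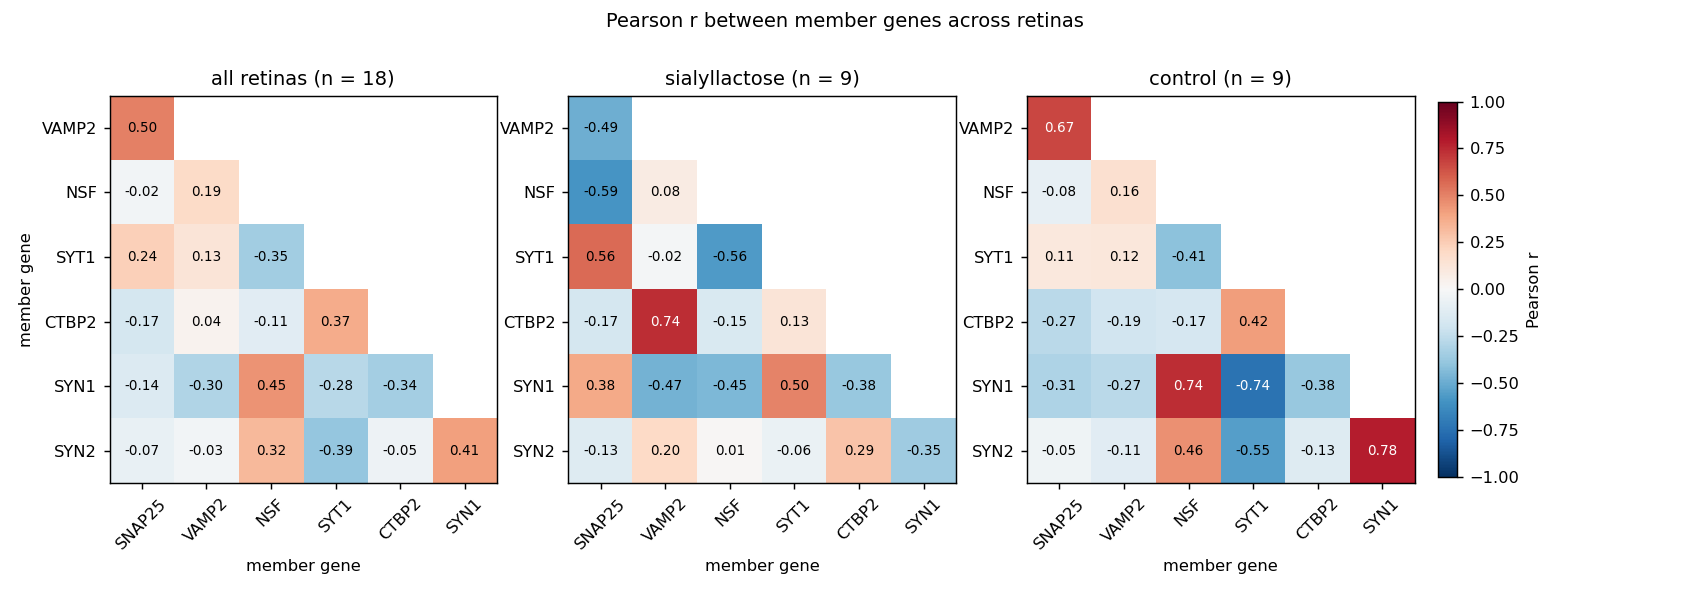
Pearson r for the 21 pairs of member genes (both axes list genes, colour and number give r) over all 18 retinas, within 9 sialyllactose retinas and within 9 control retinas. The pooled values run from -0.39 to 0.50, and several pairs change sign between the diets, such as SNAP25 with VAMP2 at -0.49 in sialyllactose and 0.67 in control retinas.

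For each member, the 3 most similar of 5703 other genes were listed by Pearson r over the 18 retinas, as a description without a test. For SNAP25 these were ACP2 (r = 0.76), LIMA1 (0.73) and AAR2 (0.73), for VAMP2 PHC1 (0.83), USP11 (0.78) and ZDHHC3 (0.77), and for NSF CDC42BPB (0.79), FBXO31 (0.76) and DGAT1 (0.74). For SNAP25, r in sialyllactose and control retinas was 0.29 and 0.87 with ACP2, 0.54 and 0.85 with LIMA1, and -0.41 and 0.81 with AAR2. For NSF it was 0.59 and 0.81 with CDC42BPB, 0.41 and 0.83 with FBXO31, and 0.45 and 0.78 with DGAT1. Without control replicate 2 the genes closest to SNAP25 were FOLR2 (0.79), AAGAB (0.77) and ACP2 (0.76). SYT1 was closest to DSPP (0.81), ARNTL (0.81) and ZNF706 (0.76), and DSPP was dim, at a mean of 1.51. When the arrays were quantile normalized again, the r of SYT1 was 0.53 with DSPP, 0.68 with ARNTL and 0.54 with ZNF706. CTBP2 was closest to HNRNPH1 (0.91), CETN3 (0.88) and LOC100511376 (0.87), with 18 genes above 0.8. These rested on control replicate 2: without it the r was 0.74 with HNRNPH1, 0.65 with CETN3 and 0.70 with LOC100511376, and 0 genes lay above 0.8. SYN1 was closest to CXCL13 (0.81), STAT4 (0.74) and GLRB (0.71), and SYN2 to ASNS (0.82), KAT5 (0.79) and CD40 (0.69). CXCL13, STAT4 and GLRB (mean 2.08) were dim, like SYN1 itself, and so was CD40 (mean 2.29). For SYN2, r in sialyllactose and control retinas was 0.88 and 0.86 with ASNS, 0.84 and 0.78 with KAT5, and 0.35 and 0.93 with CD40. None of the 21 genes closest over the 18 retinas belonged to the lists of other release cycle genes. Those lists held only 50 of the 5703 genes, so a count of 0 says little.

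The levels of the 7 genes were set beside 9 lists of cell type markers and a measure of RNA quality, the difference between 3' and 5' control probe sets (1.79 to 2.38 in sialyllactose and 1.71 to 2.25 in control retinas, log2). Relations to a list used its score, the mean deviation of its tested genes, and not the summed levels given below. Of the 70 relations, 1 had an adjusted permutation p under 0.05. SYN2 was lower where the pigment epithelium list was higher (r = -0.72, permutation p = 0.00068, adjusted p = 0.0476; rho = -0.66, adjusted p = 0.242). Within diets r was -0.53 in sialyllactose and -0.83 in control retinas, and without the 2 retinas farthest from the median it was -0.78. With diet means subtracted the adjusted p was 0.0959, and the call was lost when any 1 array other than control replicate 1, control replicate 2 or sialyllactose replicate 8 was left out. The summed level of the 7 tested of 18 listed pigment epithelium genes ran from 6.96 to 8.47 in sialyllactose and from 6.39 to 8.66 in control retinas (log2), with means lower in sialyllactose for 5 genes and higher for 2. Whether pigment epithelium in the samples has a part in the SYN2 values was not tested.

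SNAP25 ran against the microglia and immune list (r = -0.58, permutation p = 0.0165, adjusted p = 0.524), and r was -0.22 without control replicate 3 and 0.10 without control replicates 3 and 8. The 6 tested of 17 listed genes were dim, and their summed level ran from 4.41 to 4.71 in sialyllactose and from 4.41 to 5.17 in control retinas (log2), with 3 higher and 3 lower in sialyllactose. SYN1 had r = 0.53 with the same list (permutation p = 0.0225, adjusted p = 0.524). That r was 0.35 without control replicate 3, and within diets it was -0.14 in sialyllactose and 0.80 in control retinas. NSF had r = 0.46 with the measure of RNA quality (adjusted permutation p = 0.568). The part of microglia or of RNA quality in these values was not tested.

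Other genes of the release cycle were taken from 5 lists of 156 genes, of which 53 had a named probe set and 50 were tested at their brightest one. None passed at an adjusted limma p under 0.05 and 1 was called at an unadjusted one, against 321 of 5710 genes at their brightest probe set (5.62%). The means of 22 were higher and those of 28 lower in sialyllactose retinas, with a median log2 difference of -0.01, against -0.01 over all genes. With arrays centred on their medians, which shifts every gene alike, 29 of the 50 were higher and so were 53.4% of the 5710 genes.

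Of the 12 tested SNAREs and SNARE partners, 3 had higher and 9 lower means in sialyllactose retinas (median log2 difference -0.04). YKT6, a SNARE of the secretory pathway, was at 4.55 ± 0.13 in sialyllactose and 4.63 ± 0.16 in control retinas, and VTI1B, an endosomal SNARE, at 6.15 ± 0.10 in sialyllactose and 6.20 ± 0.12 in control retinas (log2, SD, n = 9 each). SNAP47, a relative of SNAP25, was dim, at 1.65 ± 0.13 in sialyllactose and 1.70 ± 0.20 in control retinas. None of these passed (limma adjusted p 0.888 to 0.936). Without control replicate 2 the differences were -0.05 for YKT6, -0.03 for VTI1B and -0.0039 for SNAP47, against -0.08, -0.05 and -0.05 with it.

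Of 6 calcium sensor and priming genes, 2 had higher and 4 lower means in sialyllactose retinas (median -0.01). RAB3A, the vesicle GTPase that brings vesicles to the release site, was at 6.84 ± 0.03 in sialyllactose and 6.86 ± 0.07 in control retinas (log2, SD, n = 9 each). CADPS2, a priming factor, differed by -0.09 and RAB3GAP1, which acts on RAB3, by -0.02, with limma adjusted p-values of 0.910 and 0.981. The 8 vesicle membrane and cargo genes had 5 higher and 3 lower means (median 0.009). Among them DNAJC5, a chaperone of SNAP25, was at 3.65 ± 0.25 in sialyllactose and 3.50 ± 0.27 in control retinas (limma adjusted p = 0.866). The proton pump subunits ATP6V1A and ATP6V0C differed by -0.12 and -0.04 on the log2 scale (limma adjusted p = 0.856 and 0.901).

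Of 6 tested genes of the ribbon and active zone list, 1 had a higher and 5 had lower means in sialyllactose retinas (median -0.02). The list also held genes whose products are not ribbon or active zone proteins, ARL3 and EGFLAM among them. CACNB4, a calcium channel subunit, was at 4.94 ± 0.07 in sialyllactose and 5.01 ± 0.16 in control retinas (log2, SD, n = 9 each), and its highest control was replicate 2. Its difference was -0.07, and -0.02 without that replicate. ARL3, a small GTPase of photoreceptors, differed by -0.04 (-0.02 without control replicate 2), and EGFLAM, or pikachurin, which lies in the cleft of the photoreceptor synapse, by 0.03. None of these 3 passed (limma adjusted p 0.882 to 0.961). EGFLAM had a second tested probe set, with a difference of the opposite sign.

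Vesicle endocytosis had 18 tested genes, 11 with higher and 7 with lower means in sialyllactose retinas (median 0.02). AP2B1, a subunit of the adaptor that brings clathrin to the membrane, was at 5.87 ± 0.05 in sialyllactose and 5.98 ± 0.07 in control retinas (log2, SD, n = 9 each). All 9 sialyllactose retinas lay below the control median, and its difference of -0.11 had an unadjusted limma p of 0.0166 and an adjusted p of 0.753. When quantile normalized again the difference was -0.08, with an unadjusted limma p of 0.0795. The second tested probe set of AP2B1 had the opposite sign. PICALM, another clathrin adaptor, differed by -0.10 and CLTB, a clathrin light chain, by 0.10 (limma adjusted p = 0.821 and 0.863). Of the 3 tested probe sets of PICALM, 2 had a lower mean in sialyllactose retinas.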

How the data were processed

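The deposited table holds 1 log2 value per probe set and array, and per the submitters' processing notes the authors used Affymetrix Expression Console and RMA. RMA in general corrects background, normalizes quantiles and summarises probes by a robust fit. Its settings and the genome build are not given in the sources used here, so no coordinates are printed. Quantile normalization hides a change shared by most genes, and RMA values carry no detection call. The log2 scale was read from the values, which ran from 0.146 to 12.8.

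The 7 genes and all lists were chosen with earlier results of these data known. All 12 member probe sets matched a RefSeq symbol. After 124 control probe sets, the 30% with the lowest mean over 18 arrays (7200) were left out, which left 16799. The sialyllactose minus control difference of each came from limma 3.58.1 in R 4.3.3 (lmFit and eBayes, no covariate), and intervals are 95%. Groups and replicate numbers came from the sample titles. The labels name no litter, batch or scan date. Correlations used 100000 permutations, and diet permutations were exact over 48620 splits, with Python 3.11.15 and SciPy 1.17.1. The limma, correlation and spread steps were tested on simulated data. After adjustment the spread step called 0.0% of probe sets simulated with 0.1 of the SD in 1 group. In that 1 simulated setting, where few probe sets were changed, its adjusted p-values did not call even a change of that size. Other settings were not simulated. In the named lists the genes with an unadjusted p under 0.05 were named, filled to 3 by the smallest p. The array's number of replicates, 9 per diet, limits the precision. Alternatives were other filters and scalings, a replicate block, array weights, an intensity trend, gene means over probe sets, diet means subtracted, and each array left out in turn.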

Additional observations from a re-analysis of the deposited data

Results flagged for a closer look

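In 3 of 54 sets of 9 retinas, 1 retina lay farther from its nearest neighbour than Dixon's 95% limit for its range, where chance gives about 1 in 20. All 3 were control replicate 2. It had 1.21 for NSF Ssc.16205.1.S1_at, against 0.594 in the nearest other control, 7.84 for CTBP2 Ssc.27641.1.A1_at, against 8.13, and 5.40 for CACNB4, against 5.11 (log2).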

How the results depend on the processing

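No member probe set passed at an adjusted p under 0.05 under any alternative run. With the replicate number as a block, 0 member probe sets were called after adjustment and 2 before it, against 1 before it without the block. Mean differences cannot move under the block, since each number occurs once per diet. Same-numbered arrays correlated between -0.113 and 0.164, 3 of 9 pairs exceeded 0.1, and 6 of 18 arrays correlated best with their own number. These counts were not set against a chance level, so they do not settle whether the numbers mark a shared factor. The labels do not call the numbers a pairing, and the main fit left them out. Small differences turned sign. CTBP2 Ssc.20400.1.S1_at moved to 0.014 with arrays centred, 0.014 when quantile normalized again and 0.0039 with array weights, and RAB3GAP1 to 0.0020 and 0.0022 under these scalings. The r of SNAP25 and VAMP2 turned to -0.49 within sialyllactose and to -0.14 without the 2 farthest retinas. The r of NSF Ssc.22051.2.S1_at and Ssc.16205.1.A1_at turned to 0.093 with arrays centred, and that of Ssc.22051.1.A1_at and Ssc.16205.1.A1_at to 0.018 with diet means subtracted. Over all probe sets, 494 were higher and 565 lower at an unadjusted p under 0.05, against 790 and 342 with arrays centred. The number higher was 802 with no filter and 249 with the dimmest 50% left out, where more and fewer probe sets were tested. With diet means subtracted, 1 in place of 2 probe set pairs and 0 in place of 1 marker relation were called. For the other changes the cause was not tested.

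With each array left out in turn, probe set pairs called ran from 0 to 2 and marker relations from 0 to 1. Differences ran from -0.0046 to 0.068 for CTBP2 Ssc.27641.1.A1_at, -0.031 to 0.018 for Ssc.20400.1.S1_at, -0.0099 to 0.099 for the first minus the second, -0.0033 to 0.043 for SYN1, -0.062 to 0.016 for SYN2, -0.040 to 0.0040 for RAB3GAP1 and -0.0091 to 0.061 for EGFLAM. The r ran from -0.12 to 0.21 and from -0.39 to 0.010 for the pairs of NSF Ssc.16205.1.A1_at and from -0.19 to 0.079 for CTBP2. SNAP25's narrower spread also lost its unadjusted call without sialyllactose replicate 3, 4, 5, 6, 8 or 9 and under both scalings. Dim probe sets (SYN1, SYN2 and a pair of NSF) limit what can be read, since RMA compresses differences there.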
